A study of Mus musculus with 2 samples.

Results

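The genes described here are 37 mouse genes of epithelial cell junctions, apical polarity and the membrane proteases that act on epithelial surfaces, chosen by name from a list and found on both arrays as probes carrying those names. All 37 were on the array, with 51 probes, and 36 of them gave a signal that could be tested, among 19801 genes tested in all. They were sorted by role into 4 adherens junction and adhesion genes, 8 desmosome genes, 16 tight junction genes, 3 polarity genes and 4 genes of membrane proteases and their inhibitors. Esrp1 and Esrp2, which regulate splicing in epithelial cells, fitted none of these roles and were kept as a pair of their own.

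Epithelial cells hold together through adherens junctions built on cadherins, through desmosomes, which tie the keratin filaments of neighbouring cells to each other, and through tight junctions, in which claudins and occludin seal the space between cells. Polarity proteins set the border between the apical and the lateral membrane, and membrane serine proteases such as matriptase, held in check by Kunitz-type inhibitors, act on the surface of the same cells. In the ureter these genes belong chiefly to the urothelium, the stratified epithelium that lines the lumen, while smooth muscle and connective tissue arise from the mesenchyme around it.

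RNA came from dissected ureters of NMRI mouse embryos at E14.5. The Gata6cKO embryos had the genotype Tbx18(cre/+);Gata6(fl/fl), with cre recombinase placed in one copy of Tbx18, a gene active in the mesenchyme of the early ureter, and with both Gata6 copies floxed. The control embryos were labelled Gata6(fl/?), that is, with at least one floxed copy and no cre named in the label. On each of 2 dual-colour arrays 1 Gata6cKO RNA was hybridised against 1 control RNA, males on the replicate 1 array and females on the replicate 2 array, with the dyes exchanged, so that sex, dye and pair cannot be told apart. Tbx18 drives cre in the mesenchyme, whereas the genes described here belong chiefly to the epithelium. Since every Gata6cKO embryo carried cre in Tbx18, the loss of Gata6 cannot be told apart from cre or from the altered Tbx18 copy. Whether each RNA came from 1 embryo or from a pool is not stated, so the p-values cannot be taken to cover the spread between embryos. In the limma fit, with 1 residual and 11.9 prior degrees of freedom, the spread behind each p-value was borrowed mostly from other genes on the same 2 arrays.

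Values are given as a normalised signal in arbitrary units for each RNA and as a log2 ratio of Gata6cKO over control (negative where Gata6cKO was lower), the mean of the 2 arrays ± its moderated standard error. Genes passed at an adjusted p under 0.05 in a limma fit over all 19801 genes. The median spot signal was between 224 and 442 over median backgrounds of 23 to 85, between 67.2% and 68.5% of spots per channel were well above background, and all 6 urothelial and all 6 mesenchymal markers examined were measurable. Signals of different probes are not comparable with each other, and in whole ureters fewer epithelial cells and less RNA per cell cannot be told apart.

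Of the 36 genes tested, 8 fell, 1 rose and 27 did not pass. The falls were Perp and Pkp1 of the desmosome, Cdh1 of the adherens junction, Cldn23, Cldn4 and Tjp3 of the tight junction, the splicing regulator Esrp2 and the protease inhibitor Spint1, and the rise was Cldn1. Over all genes tested, 2.35% passed as lower and 2.20% as higher, against 22.2% and 2.78% of the members. The members were chosen with earlier results of these data known, so these shares describe the list and do not test it. The log2 ratio was below 0 on both arrays for 28 of the 36 members, and 25.5% of all genes were below 0 on both. Of these genes Perp alone was at least 2-fold lower on both arrays, as were 0.212% of all genes, and none was at least 2-fold higher on both, as were 0.187% of all genes. Apart from Pkp1, for which only a bound can be given, the other falls were between 1.40-fold and 1.60-fold. The median over the 36 members was -0.20, with -0.23 on the replicate 1 array and -0.26 on the replicate 2 array, against -0.00 over all genes. With each array centred on its median in place of loess, Perp was the 1 member that passed.

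**Figure D1:**
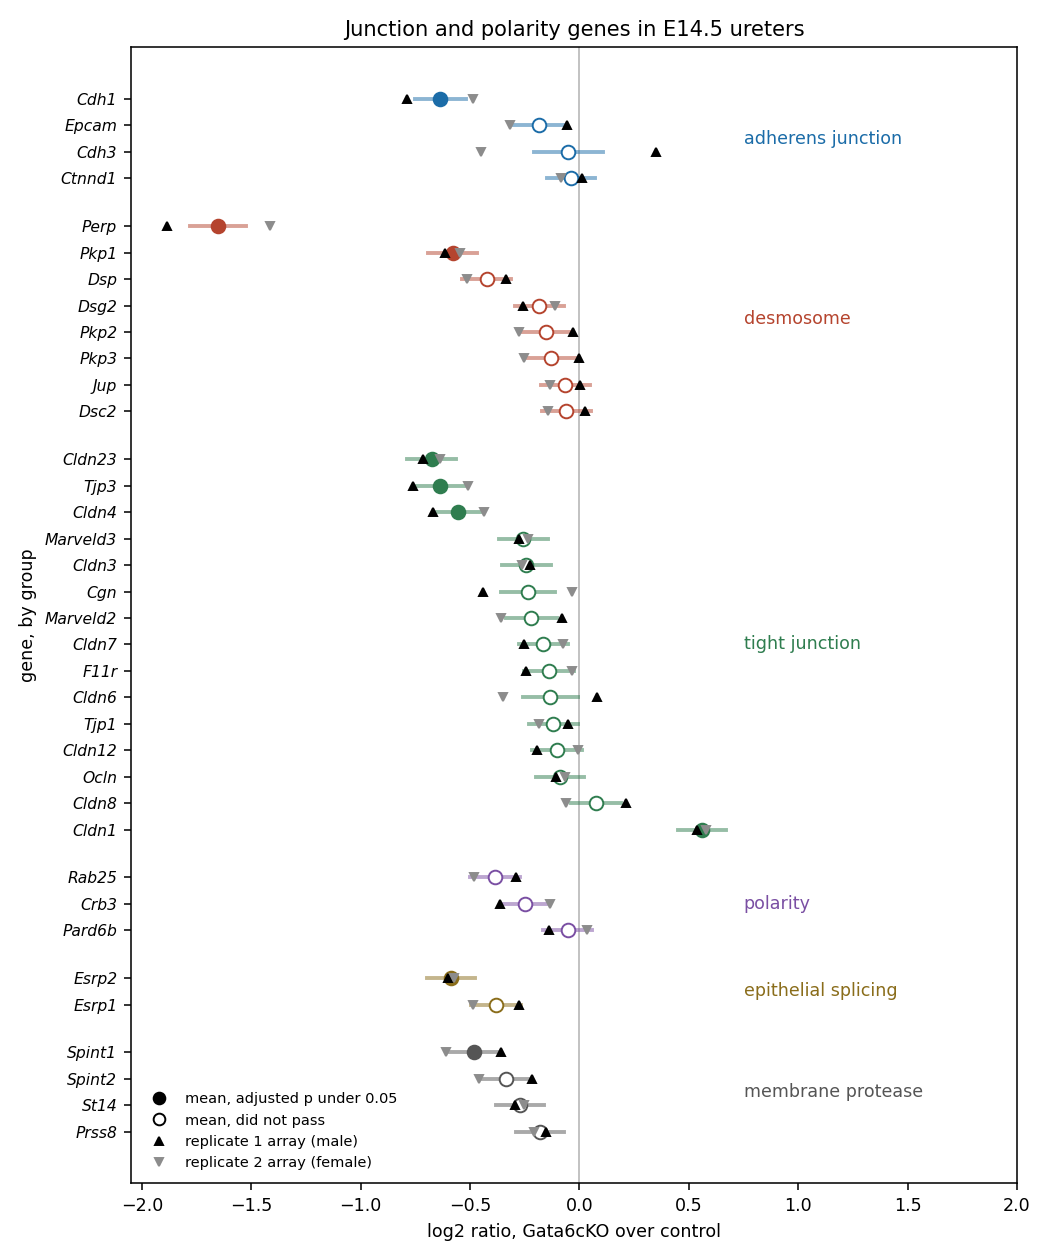
Log2 ratio of Gata6cKO over control (horizontal axis) for the 36 genes tested, grouped by role on the vertical axis; circles are means of 2 arrays with bars of ± 1 moderated standard error, filled where the gene passed, and triangles are the single arrays. Perp lies at -1.65, Cldn1 is the filled circle on the right at 0.56, and 34 of the 36 means lie below 0.

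In the adherens junction group, Cdh1, which encodes E-cadherin, the adhesion receptor that links epithelial cells at their lateral sides, fell. Its signal was 7907 and 8217 in the Gata6cKO RNAs, against 13635 and 11510 in the control RNAs (replicates 1 and 2). Both Gata6cKO values were below both control values, and the controls differed more from each other than the mutants did. Cdh1 thus had a log2 ratio of -0.64 ± 0.12 over the 2 arrays (adjusted p = 0.00554, limma), a 1.55-fold lower level, read by a probe on chromosome 8 from 109193812 to 109193871 (mm9).

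The rest of that group did not pass. Epcam, an adhesion molecule found on simple and stratified epithelia, gave 4606 and 3673 in Gata6cKO, against 4787 and 4581 in control. One mutant value lay inside the control range, and the log2 ratio was -0.19 ± 0.12 with a 95% interval of -0.44 to 0.06. Ctnnd1, p120-catenin, which stabilises cadherins at the membrane, had a log2 ratio of -0.04 ± 0.11 and differed little between the RNAs, with 20919 and 20278 in Gata6cKO, against 20779 and 21515 in control. Cdh3, P-cadherin, a cadherin of basal epithelial cells, had opposite signs on the arrays, with 0.35 for the males and -0.45 for the females. The moderated interval of its mean, -0.39 to 0.29, includes changes of either sign but neither array value, so it understates how far the arrays differed.

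Among desmosome genes, Perp and Pkp1 fell. Of the members measured above background in both genotypes, Perp had the largest fall. Perp encodes a tetraspan membrane protein of desmosomes in stratified epithelia and is a known target of the p53 family in mice. The signal was 5197 and 4945 in Gata6cKO, against 19217 and 13197 in control. The mutants were close to each other and far below both controls. Perp had a mean log2 ratio of -1.65 ± 0.13 (adjusted p = 8.10e-06, limma), a 3.14-fold lower level, with -1.89 for the males and -1.42 for the females. Its probe lies on chromosome 10 from 18576697 to 18576756 (mm9).

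Pkp1, plakophilin 1, which binds desmosomal cadherins to desmoplakin in the upper layers of stratified epithelia, fell at a signal close to background, so that its size cannot be ranked against that of Perp. With Agilent's processed signals its log2 ratio was -1.84, against -0.58 here. It gave 90.6 and 98.0 in Gata6cKO, where both arrays failed to read it well above background, against 139 and 143 in control. The level was therefore at least 1.30-fold lower in Gata6cKO (limma adjusted p = 0.00659), taking the lowest signal of any probe well above background as the limit for each array. Its probe lies on chromosome 1. Dsp, desmoplakin, which joins the desmosome to keratin filaments, narrowly missed the threshold. The signal of Dsp was 4379 and 3721 in Gata6cKO, against 5527 and 5309 in control, with no overlap. Dsp had a mean of -0.42 ± 0.11 on the log2 scale (adjusted p = 0.0516, limma).

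Desmosomal cadherins and the other armadillo proteins changed less, and none of them passed. Dsg2, a desmosomal cadherin of simple and stratified epithelia, gave -0.18 ± 0.11, and its partner Dsc2 gave -0.06 ± 0.11. Pkp2 and Pkp3, the other plakophilins, had log2 ratios of -0.15 ± 0.12 and -0.13 ± 0.12. Jup, plakoglobin, shared by desmosomes and adherens junctions, was at -0.07 ± 0.11, but its probe read only 120 and 127 in Gata6cKO, against 119 and 140 in control, which is near the limit of detection. The group as a whole had a median of -0.17 (-0.14 and -0.27 on the arrays), so Perp stood well apart from most of its group.

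**Figure D2:**
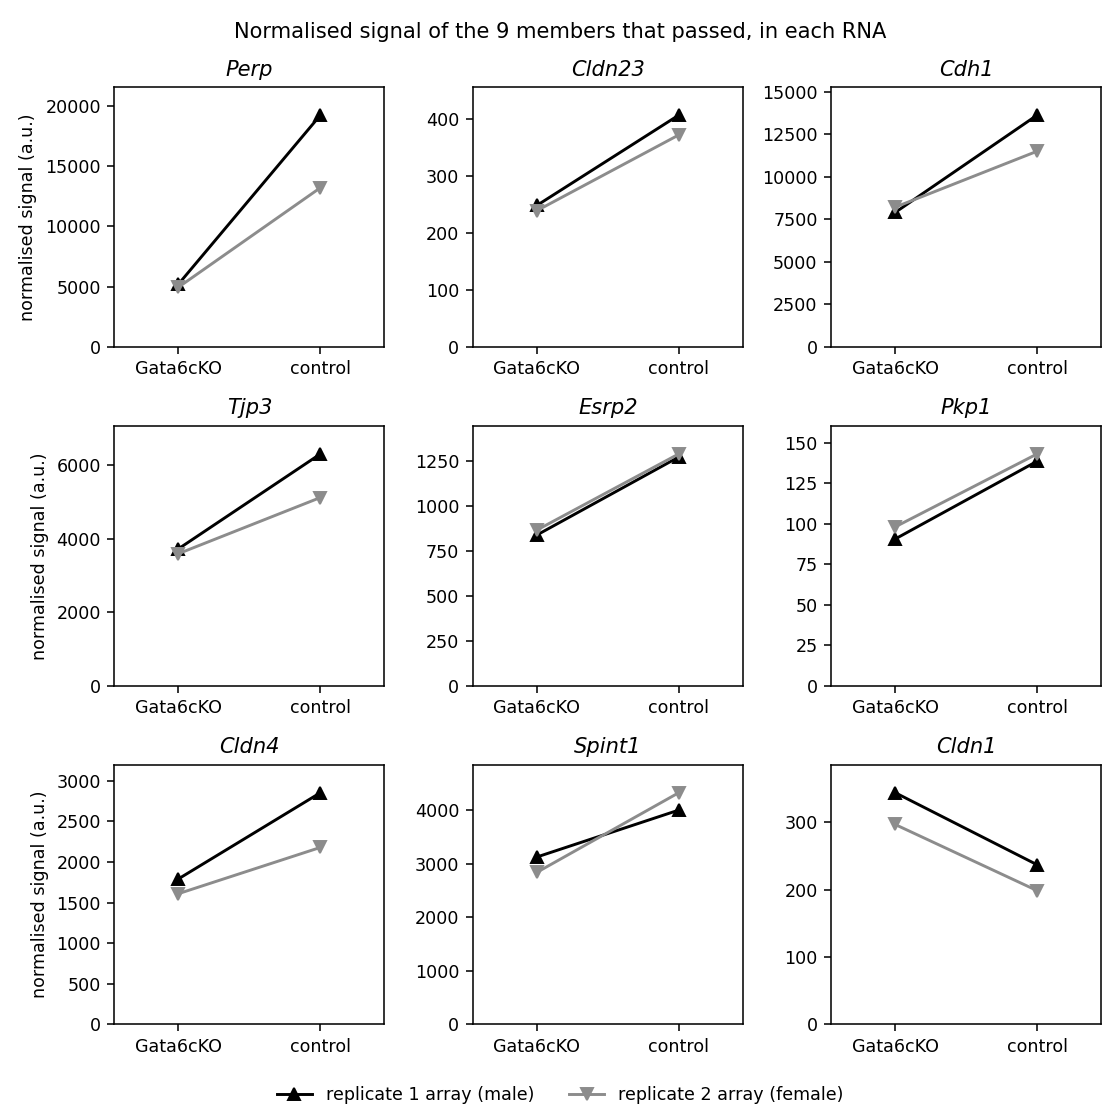
Normalised signal (arbitrary units, axes from 0) of the 9 members that passed, with Gata6cKO on the left and control on the right of each panel; each line joins the 2 RNAs of an array. In 8 panels both Gata6cKO values lie below both control values, and in the Cldn1 panel 344 and 297 in Gata6cKO lie above 237 and 199 in control.

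Tight junction genes were mostly lower, though not all. Of 15 tested, 13 were below 0, and 12 were below 0 on both arrays, as were 25.5% of all genes. Of 16 genes, 3 fell, 1 rose, 11 did not pass, and Cldn10 could not be tested because it was well above background in 1 and 0 of 4 spots in Gata6cKO and in 4 and 1 of 4 spots in control. The group median was -0.16, with -0.22 and -0.19 on the arrays.

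Cldn23, a claudin with restricted expression in surface epithelia, gave a signal of 248 and 239 in Gata6cKO, against 406 and 371 in control. The genotypes were clearly separated and the arrays agreed closely, at -0.71 and -0.64. For Cldn23 the mean was -0.68 ± 0.11 (adjusted p = 0.00234, limma), a 1.60-fold lower level. Tjp3, ZO-3, a scaffold that links claudins to the cell cortex in epithelial cells, gave 3719 and 3588 in Gata6cKO, against 6300 and 5114 in control. Again both mutants were lower than both controls. For Tjp3 the mean was -0.64 ± 0.12 (adjusted p = 0.00480, limma), a 1.55-fold lower level.

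Cldn4, a claudin that tightens the barrier of many epithelia, gave 1790 and 1609 in Gata6cKO, against 2851 and 2178 in control. Here too the groups did not overlap. For Cldn4 the mean log2 ratio was -0.55 ± 0.11 (adjusted p = 0.0118, limma), a 1.47-fold lower level. A further Cldn4 probe on the same strand read a smaller difference of -0.23 that did not pass, with 1081 and 1123 in Gata6cKO, against 1354 and 1233 in control. The size of the Cldn4 fall therefore depends on the probe, and the mean of both probes, -0.39, did not pass.

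Cldn1 went the other way. This claudin, which is essential for the skin barrier in mice, gave 344 and 297 in Gata6cKO, against 237 and 199 in control. Both mutants exceeded both controls. The mean log2 ratio was 0.56 ± 0.11 (adjusted p = 0.00857, limma), a 1.47-fold higher level, with 0.54 and 0.58 on the arrays. Its probe lies on chromosome 16 from 26357372 to 26357431 (mm9).

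The central components of the tight junction did not pass. Ocln, occludin, a tetraspan protein of the tight junction strand, gave 945 and 894 in Gata6cKO, against 1019 and 936 in control (log2 ratio -0.09 ± 0.11, 95% interval -0.33 to 0.15). Tjp1, ZO-1, the scaffold found in junctions of many cell types, gave 11767 and 10237 in Gata6cKO, against 12204 and 11645 in control (log2 ratio -0.12 ± 0.11, 95% interval -0.36 to 0.12). For both genes a mutant value lay inside the control range, and both intervals leave out a fall of the size seen for Tjp3.

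Marveld2, tricellulin, which seals the corners where 3 cells meet, and its relative Marveld3 had log2 ratios of -0.22 ± 0.12 and -0.26 ± 0.11. Cgn, cingulin, an adaptor between the tight junction and actomyosin, was at -0.24 ± 0.12, and F11r, the adhesion molecule JAM-A, at -0.14 ± 0.11. The claudins Cldn3, Cldn7, Cldn6 and Cldn12 had log2 ratios of -0.24, -0.16, -0.13 and -0.10, while Cldn8 was at 0.08. None of these 9 genes passed, and all but Cldn8 were below 0.

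Promoter sequences of members were read to show what lies beside these genes. RefSeq promoters of build GRCm38.p6 were at hand for 22 members, 8 of which (36.4%) had more than 1, as did 19.4% of 12718 tested genes with an entry. A gene was counted if any of its promoters held the motif, and the 250 bases before the start were searched on both strands for CAGGTG and for CAGGTA. Both are E-boxes, the kind of site bound by the cadherin repressors of the Snail and ZEB families. The motif CAGGTG was present for 11 of the 22 members (50%), against 19.1% of the tested genes and 30% of 40 other junction, polarity and protease genes. Counted per promoter, it was in 13 of 31 (41.9%), against 16.4% of 16080 promoters of tested genes. The 11 were Tjp3, Cldn4, Cldn6, Cldn7, Crb3, Epcam, F11r, Ocln, Pard6b, Rab25 and Spint2. Tjp3 and Cldn4 fell and 9 did not pass, so the motif was found beside genes of both kinds. Of the 8 members that fell, only 3 had a promoter entry, and Tjp3 and Cldn4 were 2 of these 3. The variant CAGGTA was present for 2 of the 22 (9.09%), against 9.01% of tested genes with an entry, and one of these was Cldn1, the gene that rose. The other motifs searched were also found in few members. The GATA motif AGATAA was found for 2 of 22 (9.09%), Cldn10 and Tjp3 (in the Tjp3 promoter not printed here), against 7.85% of tested genes, and the grainyhead core AACNNGTT for 2 of 22, Cgn and Rab25, against 3.68%. CAGGTG and CAGGTA share their first 5 letters and no site can be both. A match shows only that the letters are present. The stretches before Tjp3 (chr10:81291268-81291517, minus strand), Cldn4 (chr5:134946935-134947184, minus strand) and Cldn1 (chr16:26371840-26372089, minus strand) are shown 5′ to 3′. These are the called tight junction genes with CAGGTG or CAGGTA. Only these searched motifs are in capitals (CACCTG is CAGGTG read on the other strand), and E-boxes of other sequence are not marked.
Tjp3: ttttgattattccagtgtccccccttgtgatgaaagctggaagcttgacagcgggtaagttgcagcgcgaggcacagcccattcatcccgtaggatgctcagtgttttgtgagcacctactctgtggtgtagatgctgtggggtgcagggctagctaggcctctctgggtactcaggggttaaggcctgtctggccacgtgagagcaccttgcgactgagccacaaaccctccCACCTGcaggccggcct
Cldn4: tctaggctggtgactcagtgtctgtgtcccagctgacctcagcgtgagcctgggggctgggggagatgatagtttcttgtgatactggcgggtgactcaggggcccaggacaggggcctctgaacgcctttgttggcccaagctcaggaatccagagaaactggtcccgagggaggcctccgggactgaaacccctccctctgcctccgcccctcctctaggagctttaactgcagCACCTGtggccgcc
Cldn1: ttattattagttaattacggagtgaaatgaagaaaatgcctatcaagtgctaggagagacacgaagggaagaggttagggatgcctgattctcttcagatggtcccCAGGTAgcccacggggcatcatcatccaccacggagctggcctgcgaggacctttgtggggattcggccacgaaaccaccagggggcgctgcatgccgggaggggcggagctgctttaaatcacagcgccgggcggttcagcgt
The motif in capitals begins 17 bases before the start of Tjp3 and 14 before that of Cldn4, and 144 before that of Cldn1.

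None of the 3 polarity genes passed in limma, although 2 of them had an unadjusted p under 0.05. Over all 19801 genes tested, 1208 were lower and 1042 higher at that unadjusted threshold. Rab25, a small GTPase that recycles proteins to the apical surface of epithelial cells, gave 880 and 813 in Gata6cKO, against 1076 and 1136 in control. The groups did not overlap, but the log2 ratio of -0.39 ± 0.11 had a limma adjusted p of 0.0830. Crb3, the epithelial Crumbs protein that defines the apical membrane, was at -0.25 ± 0.11, and Pard6b, a subunit of the apical PAR complex, at -0.05 ± 0.11 with a signal near the limit of detection in all 4 RNAs (110 and 118 in Gata6cKO, against 121 and 116 in control). The group median was -0.25, with -0.29 and -0.13 on the arrays.

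Both splicing regulators were lower on both arrays, and Esrp2 passed. Esrp1 and Esrp2 direct the epithelial splice forms of genes such as Fgfr2 and Ctnnd1. Esrp2 gave 839 and 867 in Gata6cKO, against 1274 and 1291 in control. The RNAs of a genotype lay close together and the genotypes far apart. For Esrp2 the mean log2 ratio was -0.59 ± 0.11 (adjusted p = 0.00592, limma), a 1.50-fold lower level. Esrp1 gave 1817 and 1588 in Gata6cKO, against 2203 and 2226 in control, without overlap, and its log2 ratio of -0.38 ± 0.11 did not pass (limma adjusted p = 0.0896).

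All 4 genes of the membrane protease group were lower on both arrays, and 1 passed. Spint1, the inhibitor HAI-1, which blocks matriptase, gave 3122 and 2836 in Gata6cKO, against 3997 and 4322 in control. Neither mutant reached the lower control. Spint1 had a mean log2 ratio of -0.48 ± 0.12 (adjusted p = 0.0288, limma), a 1.40-fold lower level, and a further probe that overlaps it by a few bases gave -0.36, which did not pass (limma adjusted p over probes = 0.0899). Spint2, the related inhibitor HAI-2, had a log2 ratio of -0.34 ± 0.12 with 7884 and 6864 in Gata6cKO, against 9152 and 9442 in control.

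The proteases themselves did not pass. St14, matriptase, gave 2652 and 2621 in Gata6cKO, against 3250 and 3121 in control, which did not overlap (log2 ratio -0.27 ± 0.11, limma adjusted p = 0.301). Prss8, prostasin, a membrane-anchored protease in the same cascade, gave 1541 and 1346 in Gata6cKO, against 1715 and 1554 in control, again without overlap (log2 ratio -0.18 ± 0.11, limma adjusted p = 0.755). Over the 36 genes, both Gata6cKO signals lay below both controls for 22 and above both for 1, against 17.6% and 15.9% of all genes tested.

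Set beside each other, the groups had medians of -0.49 for the splicing pair, -0.31 for the proteases and inhibitors, -0.25 for polarity, -0.17 for desmosomes, -0.16 for tight junctions and -0.12 for adherens junctions. The adherens junction median rested on arrays that differed, with -0.02 on the replicate 1 array and -0.38 on the replicate 2 array, so this group was the highest on the one and the second lowest on the other. Of 15 pairs of groups, 7 differed in the same direction on both arrays. Those 7 were the splicing pair, lower than each of the other 5 groups, and the proteases, lower than desmosomes and tight junctions by 0.14 each. With 2 arrays there was no test of such a difference, and the order of the groups is a description.

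Genes of the same structures outside the list, also chosen with earlier results of these data known, were examined for comparison. Of 52 tested genes from a list of 69, 8 fell and none rose in limma, which is 15.4% lower against 2.35% of all genes. At an unadjusted limma p under 0.05, 14 were lower and 1 higher, against 1208 and 1042 of all 19801 genes. Their median was -0.08. Cdh2 did not pass at 0.36 ± 0.11 by its brightest probe, but a further probe gave 0.61 (limma adjusted p over probes = 0.00256). The falls included Tmprss13 at -1.49 ± 0.11, Tmprss4 at -1.09 ± 0.11 and Tmprss2 at -0.55 ± 0.12, all membrane serine proteases, and Ildr1, angulin-2, a protein of tricellular tight junctions, at -0.95 ± 0.12. Evpl and Ppl, the plakins envoplakin and periplakin of stratified epithelia, fell by 0.70 ± 0.12 and 0.68 ± 0.12 on the log2 scale. Nectin4, a nectin of epithelial adherens junctions, fell by 0.76 ± 0.13 on the same scale. Among 15 tested polarity genes, Scrib, Pard3 and Prkci among them, none passed in limma (2 lower and 0 higher at an unadjusted p under 0.05), and their median was 0.01. The catenins Ctnna1 and Ctnnb1, which bind classical cadherins such as E-cadherin to actin, had log2 ratios of -0.08 and -0.11 and did not pass.

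**Figure D3:**
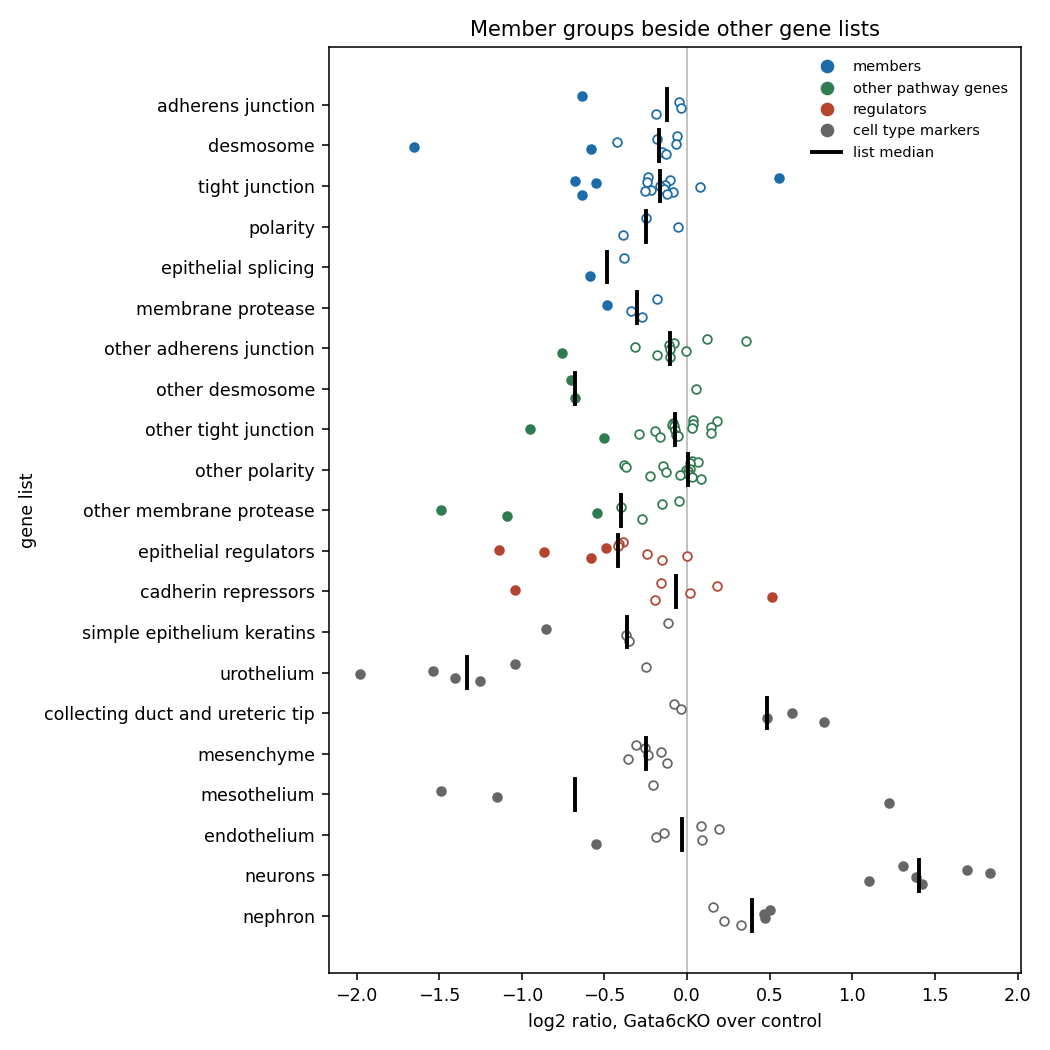
Log2 ratio of Gata6cKO over control (horizontal axis) of single genes, one row for each list, with filled points for genes that passed and a black bar at each list's median. The 6 member groups at the top have medians between -0.49 and -0.12, against -1.33 for the urothelial markers and -0.25 for the mesenchymal ones.

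Regulators of epithelial genes were lower in part. Of 10 epithelial transcription factors 4 fell and none rose in limma. At an unadjusted limma p under 0.05, 7 were lower and 0 higher, against 1208 and 1042 of all 19801 genes. Grhl3, a grainyhead-like factor needed for the terminal differentiation of surface epithelia in mice, fell by 1.14 ± 0.11 on the log2 scale (limma adjusted p = 4.24e-05) and its relative Grhl2, which activates Cdh1 and Cldn4 in other mouse epithelia, by 0.49 ± 0.11. Klf5 and Pparg, factors of urothelial differentiation, fell by 0.86 ± 0.11 and 0.58 ± 0.11. Of 6 cadherin repressors, Zeb1 rose by 0.51 ± 0.11 (limma adjusted p = 0.0160), Twist1 fell by 1.04 ± 0.11, and Snai1, Snai2, Zeb2 and Twist2 did not pass, with log2 ratios of -0.16, 0.18, -0.19 and 0.02.

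Marker genes of several cell types were read on the same arrays, and the lists differed in direction and in how many genes passed. Of 4 keratins of simple epithelia, Krt19 fell by 0.86 ± 0.11 and Krt7, Krt8 and Krt18 did not pass at -0.37, -0.35 and -0.11, with a list median of -0.36. Of 6 urothelial markers 5 fell, with a median of -1.33. The 6 mesenchymal markers had a median of -0.25 and none passed in limma. At an unadjusted limma p under 0.05, 3 of them were lower and 0 higher, against 1208 and 1042 of all 19801 genes. Of 5 tested markers of the collecting duct and ureteric tip, which is also a junction-bearing epithelium, Ret, Wnt11 and Wnt9b rose by 0.64 ± 0.11, 0.48 ± 0.12 and 0.83 ± 0.11, and the median was 0.48. Mesothelial markers, again of an epithelial sheet, were below 0 for 3 of 4 tested. Msln was at -1.49 ± 0.15, Wt1 at 1.22 ± 0.11, and Gpm6a at -0.21, which did not pass. Upk3b was at least 2.17-fold lower, since its probe was not well above background in Gata6cKO. All 6 neuronal markers rose, with a median of 1.40, 3 of 6 nephron markers rose, with a median of 0.40, and 1 of 6 endothelial markers fell, with a median of -0.03. The part of these cell types in the values of the junction genes was not tested.

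**Figure D4:**
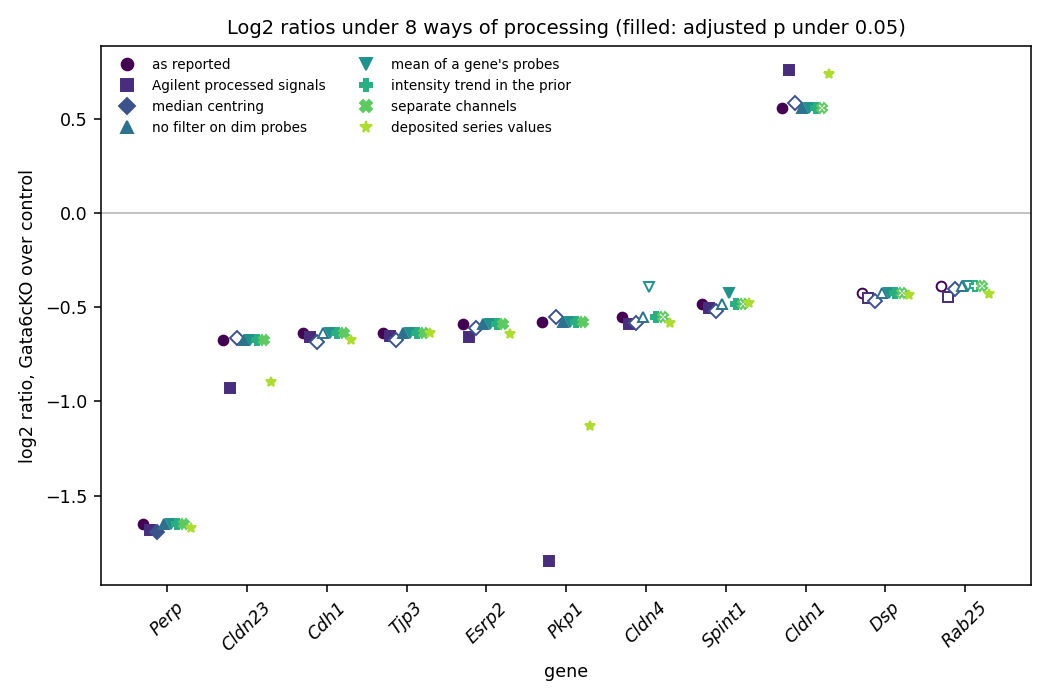
Log2 ratio of Gata6cKO over control (vertical axis) of the 9 members that passed and of Dsp and Rab25 under 8 ways of processing the same arrays; filled symbols have an adjusted p under 0.05. Perp is filled under all 8, Pkp1 spreads most, and no gene shown changes sign.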

How the data were processed

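Per the file headers, a deposited scanner file gives 1 array's mean and background intensity in each dye for all spots. It also gives a processed intensity, detrended and dye-normalised by Agilent Feature Extraction 10.7.3.1, a version named in the submitters' processing notes. The deposited series values are a score, namely the linear fold between Gata6cKO and control with a sign for its direction. Their median was 1 on each array, and across genes, which are not replicates, they correlated with the processed log2 ratios at a Pearson r of 0.986 and 0.980. How spots were summarised for it is not given in the sources used here. There were 0 unused sample columns.

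Raw intensities were processed with limma 3.58.1 and statmod 1.5.0 under R 4.3.3. The steps were normexp (offset 50), loess within arrays, control and outlier spots at weight 0, and the 4 spots of a probe averaged. Of 39429 probes, 26200 had at least 3 of 4 spots well above background in 1 genotype on both arrays, and the brightest kept probe stood for a gene. Of the member probes 46 of 51 were kept, and 10 members had more than 1. No spot was saturated. Normalised signals were taken after quantile normalisation of average intensities between arrays. The ratio was fitted with lmFit and eBayes, with -1 in the design for the array of exchanged dyes (1 residual and 11.9 prior degrees of freedom), and Benjamini-Hochberg adjustment over 19801 genes. The fit was tested on simulated data. Both arrays were on 1 slide, per the file headers, and their number limits the precision.

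Symbols came from the scanner files, updated through RefSeq accessions (28328 probes matched). Probe coordinates are those of the files, on mm9. The members, lists and tests were chosen with earlier results of these data known. Every member was named, with the value of each RNA for those that passed and for Cdh1, Epcam, Ocln, Tjp1, St14 and Prss8, and in other lists those that passed, of which 1 gene is not reported here.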

Additional observations from a re-analysis of the deposited data

Results flagged for a closer look

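Among the 36 members tested, 7 had opposite signs for males and females, and 51.2% of all genes did. The difference between the arrays was not tested, since each sex has 1 array and sex, dye and pair cannot be told apart. Cdh3 differed most, with a log2 ratio of 0.35 for the males and -0.45 for the females, a difference (male minus female) of 0.80. Cldn6 had 0.08 and -0.35, a difference of 0.43, and Cldn8 had 0.21 and -0.06, a difference of 0.27. For Ctnnd1, Dsc2 and Jup the male array was just above 0 and the female array below it, with differences of 0.10, 0.17 and 0.14. Pard6b had the other order, with -0.14 and 0.03, a difference of -0.17. None of the 7 passed in the fit over both arrays.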

How the results depend on the processing

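Without loess, centring each array on its median left 1 of the 8 falls among members (Perp) and no rise (1 gene at an unadjusted p under 0.05 in limma), though the log2 ratios were of like size (Cdh1 -0.68, Tjp3 -0.68, Spint1 -0.52), and 3 falls among the other junction genes; the calls over all genes went down to 100 lower and 90 higher, against 465 and 436, and the tight junction median was -0.21. With no filter on dim probes 5 members and 4 other genes fell, Cdh1, Cldn4 and Spint1 being lost at adjusted p = 0.0547, 0.0628 and 0.0990, with the same log2 ratios and more genes tested (29875). Separate channels gave 6 falls and 0 rises of members (1 rise at an unadjusted p under 0.05), Cldn1 being lost at adjusted p = 0.0752. A rule of 2-fold on both arrays left 1 fall and 0 rises of members and 1 fall of other genes. The mean of a gene's probes turned the log2 ratio of Ctnnd1 to 0.0239 and gave 1 rise among other genes, Cdh2, named after its value was seen. Leaving out 1 array left no test. The medians then ranged from -0.38 to -0.0230 for adherens junctions, -0.27 to -0.14 for desmosomes, -0.22 to -0.19 for tight junctions and -0.29 to -0.13 for polarity genes. Dsp passed under 3 of 7 settings and Rab25 under 1, and Perp passed under all 7. The causes were not tested. Signal over background limits Pkp1, whose ratio ranged from -1.84 to -0.55, and Cldn10, Jup, Pard6b and Upk3b. The fit is itself paired, since each array's ratio sets 1 Gata6cKO RNA against 1 control RNA.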
